A study of Mus musculus with 7 samples.

Results

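Interferon-inducible GTPases were described here as a set of 9 genes of mouse liver: BC023105, Gm4951, Iigp1, Irgm1, Irgm2, Igtp, Gbp2, Gbp3 and Gbp7. The members were all probe sets that the platform annotation assigns to exactly 1 of these symbols, which gave 12 probe sets among 45037 that are not controls, and 9 genes among 18193. The genes were chosen by their log2 values in the knockout and wild-type livers compared here, so their own differences between genotypes are given as a description, without a test. Livers came from 4 miR-122 knockout and 3 wild-type mice, all 2 months old and all on a mixed B6/129 background, with 1 Affymetrix array for each animal. The labels do not say how the knockout allele was made, which animals were littermates, or what sex they were. miR-122 is a microRNA that hepatocytes make in large amounts, and the question is how liver expression differs without it. Values are listed in the order WT-27, WT-103, WT-104 for wild type, then KO-03, KO-90, KO-91, KO-94 for knockout. Levels are log2 values normalised by RMA, on which a difference of 1 is a factor of 2, and every difference is knockout minus wild type.

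Immunity-related GTPases (the IRG family) and guanylate-binding proteins (the GBP family) are made in response to interferons, most strongly to interferon gamma. They gather on the vacuoles in which some intracellular bacteria and parasites live, and help to break those vacuoles open. Irgm1, Irgm2 and Igtp are regulators that hold effector GTPases such as Iigp1 inactive on the cell's own membranes, and Gbp2, Gbp3 and Gbp7 belong to the GBP family. Interferon receptors signal through JAK kinases and STAT and IRF transcription factors, which bind the interferon-stimulated response element (ISRE) and the gamma-activated sequence (GAS) in promoters of such genes. Hepatocytes, Kupffer cells and endothelial cells can all express these genes. In a whole liver, fewer cells of a type and less RNA per cell cannot be told apart.

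A RefSeq table of promoters (build GRCm38.p6), which spans 250 bases before to 50 bases after each gene start, matched 6 of the 9 members. BC023105, Gm4951 and Iigp1 had no entry. The windows are shown because the ISRE core is the element that the 6 share, and because 2 of them are nearly the same sequence. Each is 60 bases long and runs 5′ to 3′ on the gene's strand, and capitals mark every match to the ISRE core GAAANNGAAA on either strand (the reverse strand reads TTTCNNTTTC).
Irgm1 (chr11:48871416-48871475, minus strand): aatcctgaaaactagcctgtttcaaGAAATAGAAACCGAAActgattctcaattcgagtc
Igtp (chr11:58199497-58199556, plus strand): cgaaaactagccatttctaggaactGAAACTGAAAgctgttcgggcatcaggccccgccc
Irgm2 (chr11:58214888-58214947, plus strand): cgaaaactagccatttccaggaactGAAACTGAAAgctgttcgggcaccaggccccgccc
Gbp2 (chr3:142620579-142620638, plus strand): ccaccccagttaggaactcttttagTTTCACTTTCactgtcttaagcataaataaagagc
Gbp3 (chr3:142559974-142560033, plus strand): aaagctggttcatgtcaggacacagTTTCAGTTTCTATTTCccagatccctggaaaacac
Gbp7 (chr3:142530258-142530317, plus strand): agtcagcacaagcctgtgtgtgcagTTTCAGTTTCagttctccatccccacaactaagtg

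All 6 matched members held the core in at least 1 promoter, where 3.44% of 32851 promoters in the table do. Gbp3 has a second promoter in the table, without the core. The matches of Irgm1 and Gbp3 are each a pair that overlaps. The GAS motif TTCNNNGAA, which reads the same on both strands, was found for Gbp7, Igtp and Irgm2, and in 8.3% of all promoters. None of its matches in these members overlapped an ISRE core. The windows of Igtp and Irgm2 matched at 58 of 60 positions, and those of Irgm1 and Igtp at 17 of 60. Over the whole promoters of Igtp and Irgm2 the likeness was lower, with 184 of 270 positions (68.1%) matching in the best alignment without gaps. A match describes letters in the window and does not show that a factor binds there.

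BC023105 was the member with the highest difference, and the only one with every knockout liver above wild type. Its level was 7.40, 6.29 and 6.82 in the wild-type livers, and 10.41, 9.85, 9.13 and 9.87 in the knockout livers. The genotypes were far apart, with the lowest knockout value in KO-91 and the highest wild-type value in WT-27. Wild type averaged 6.84 ± 0.56 (SD, n = 3) and knockout 9.82 ± 0.53 (SD, n = 4), a difference of 2.98 ± 0.32 (SE), or 7.89-fold. RefSeq lists BC023105 as a pseudogene, so the array value is that of a transcript, read by a single probe set, with no protein implied. BC023105, Gm4951 and Iigp1 are related genes. Probe sequences were not used here, so how far their probe sets read each other's transcripts was not tested.

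Gm4951, a protein-coding gene close to BC023105 in gene order, went the other way. It stood at 10.01, 10.42 and 10.56 in the 3 wild-type livers and at 9.27, 8.80, 9.43 and 8.18 in knockout. No knockout liver reached the lowest wild-type value, and KO-94 was the lowest of all. The means were 10.33 ± 0.29 (SD, n = 3) and 8.92 ± 0.56 (SD, n = 4), and the difference was -1.41 ± 0.29 (SE).

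Iigp1, an effector GTPase of the IRG family also called Irga6, was lower in knockout by both of its probe sets, without overlap. The brighter probe set read 12.17, 12.06 and 12.23 in wild type and 11.58, 11.62, 11.73 and 10.93 in knockout, a difference of -0.69 ± 0.19 (SE). The dimmer probe set read 10.85, 10.54 and 10.43 in wild type and 10.06, 10.10, 10.10 and 9.02 in the same knockout livers, a difference of -0.79 ± 0.27 (SE). In both, 3 knockout livers lay close together and KO-94 lay well below them. Without KO-94 the difference of the brighter probe set was -0.51.

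**Figure D1:**
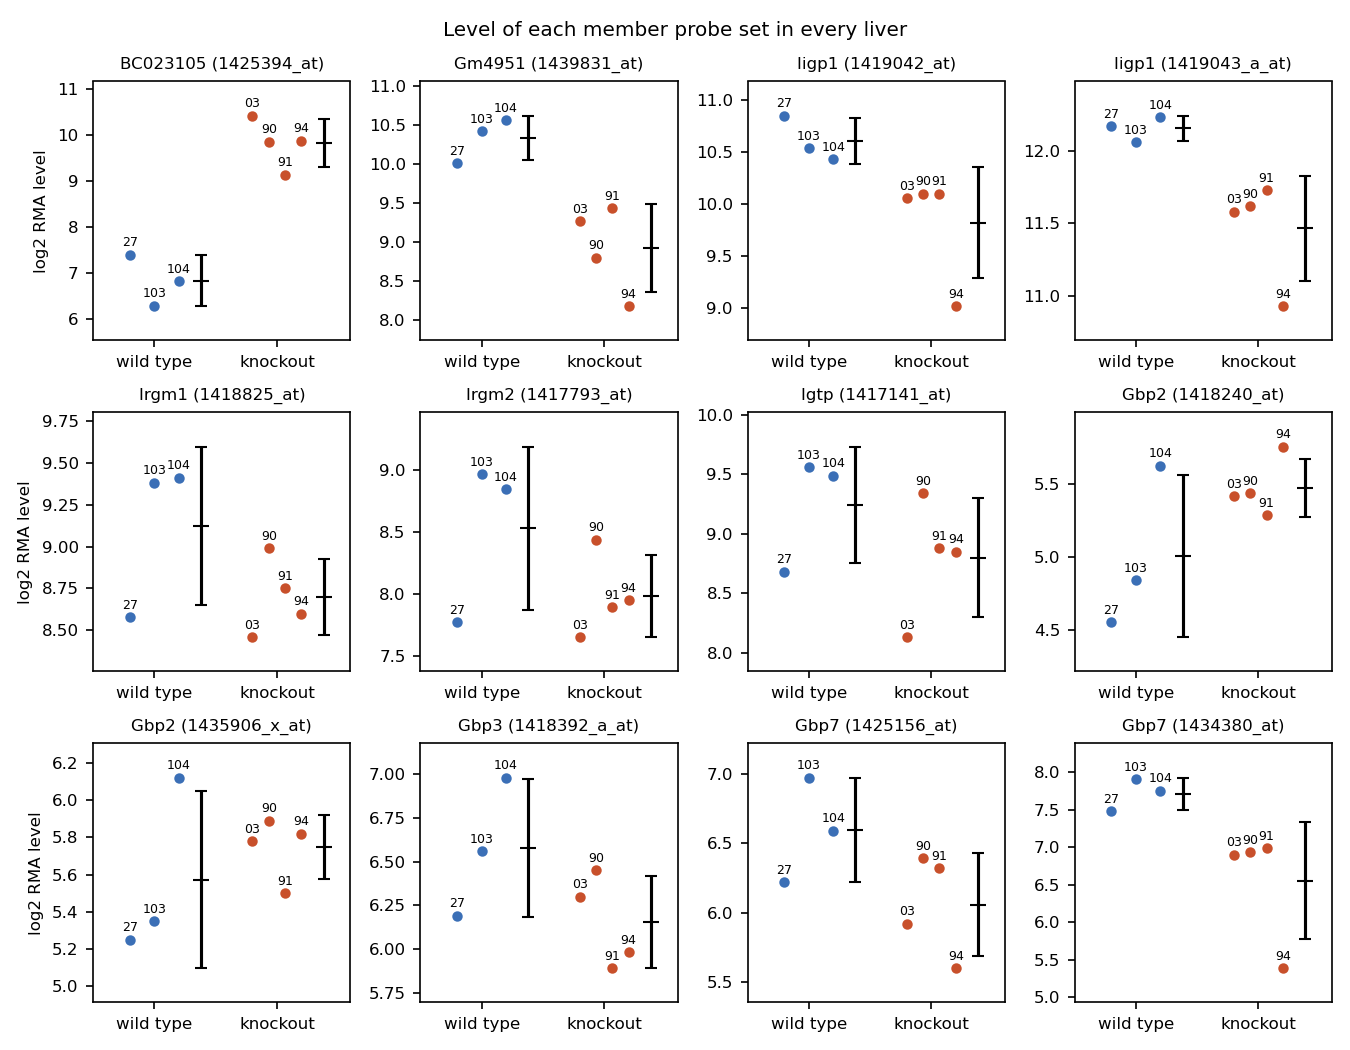
Log2 RMA level (vertical axis, with a range of its own in each panel) of the 12 member probe sets in the 3 wild-type livers (blue) and the 4 knockout livers (orange), with the animal's number beside each point and the mean ± SD of each genotype in black. BC023105 is the only member with all knockout livers above all wild-type livers, while Gm4951, both probe sets of Iigp1 and the brighter probe set of Gbp7 have all knockout livers below.

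In the RefSeq gene order Gm4951, Iigp1 and BC023105 lie 128, 120 and 118 places before the gene of miR-122, Mir122, on the same chromosome. The other 6 members lie on other chromosomes. Of the 8 measured genes within 10 places of these 3, members left out, 2 were called higher in knockout by limma at an adjusted p under 0.05, and 0 lower, and the same 2 had an unadjusted p under 0.05. They were Dctn4, a dynactin subunit, 3 places after BC023105, and Synpo, which encodes the actin-binding protein synaptopodin, 7 places after it. Over all genes tested 3.53% were called. Dctn4 read 7.65, 7.54 and 7.46 in wild type and 7.97, 8.16, 8.18 and 8.21 in knockout, a rise of 0.58 ± 0.11 (SE; limma adjusted p = 0.0256). Synpo had all 3 wild-type livers at or under the level of the brightest bacterial control probe set, used as a floor, and was higher by at least 0.77 (limma adjusted p = 0.021). Dctn4 lost its call without any single liver except KO-03, and Synpo without any wild-type liver or KO-90. When all probe sets of each gene were averaged, the Dctn4 difference was 0.33 and the Synpo difference 0.77, and neither was called (limma adjusted p = 0.116 and 0.0585). Smim3, the gene next to BC023105, differed by 0.00 ± 0.17 (SE), and Rbm22 and Myoz3, between Dctn4 and Synpo, by 0.02 and -0.03.

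Nearer to Mir122 few genes were called. Of 38 measured genes within 50 places on either side, 1 was called, the tyrosine phosphatase gene Ptpn2, which is 2.63%, and the median difference was -0.01. Within 100 places it was 2 of 73, and within 25 places 0 of 17, of which 3 had an unadjusted p under 0.05 in limma. Over the whole chromosome 17 of 459 measured genes were called, or 3.7%. The called genes nearest to Mir122 were, in order of distance, Ptpn2, Pdgfrb, Synpo, Dctn4, BC023105, Gm4951, Myo5b, Tnfaip8, Zfp236 and Zadh2. Tnfaip8 was higher by at least 0.49, the motor protein gene Myo5b by 0.89, and Zfp236 and Zadh2 fell by 0.50 and 0.71 on the log2 scale. Myo5b kept its call without any single liver. Pdgfrb and Tnfaip8 lost theirs without WT-103, Zadh2 without any wild-type liver, KO-91 or KO-94, and Zfp236 without any single liver except KO-03, as well as with median centring, a trended prior or the mean of all probe sets. The labels do not say which strain's chromosome surrounds the knockout allele in each animal. For genes on this chromosome, a difference carried by linked sequence and one that follows the loss of miR-122 cannot be told apart.

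**Figure D2:**
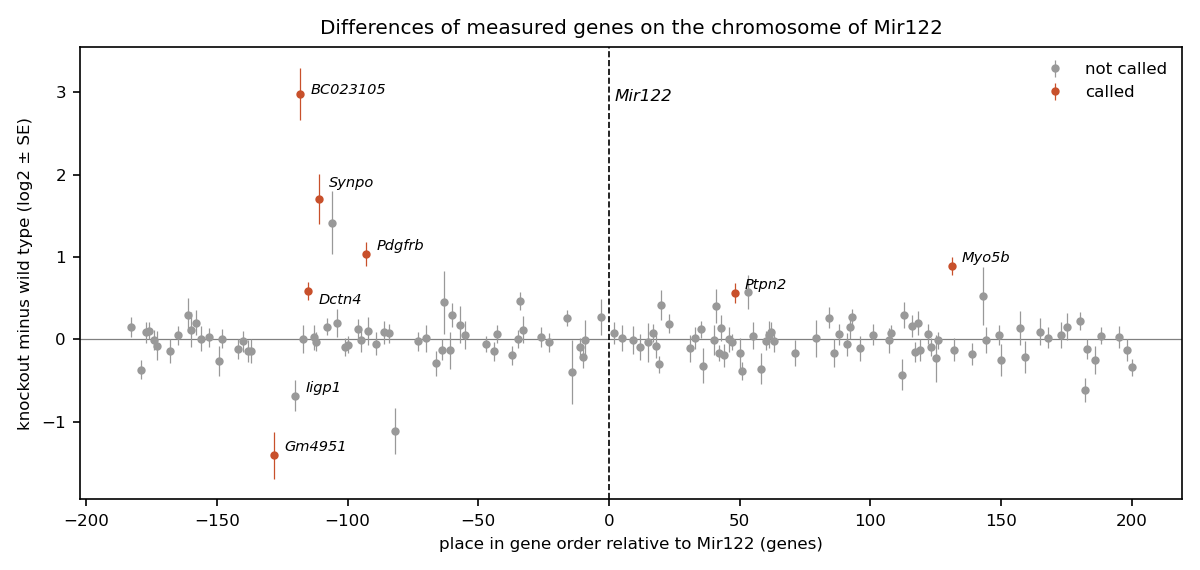
Knockout minus wild type (log2 ± SE, vertical axis) of each measured gene against its place in the RefSeq gene order relative to Mir122 (horizontal axis, in genes), with genes called by limma in orange. BC023105 at 2.98 and Gm4951 at -1.41 lie 10 places apart, and between them lies Iigp1 at -0.69, which was not called. Synpo is drawn at its fitted 1.70, although only at least 0.77 of it lies above the floor.

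The 3 regulatory IRG genes had lower means in knockout, but their genotypes overlapped. Irgm1 read 8.58, 9.38 and 9.41 in wild type, and 8.46, 8.99, 8.75 and 8.60 in knockout, a difference of -0.42 ± 0.22 (SE). Irgm2 read 7.77, 8.97 and 8.85, and 7.65, 8.44, 7.89 and 7.95, a difference of -0.55 ± 0.30 (SE). Igtp, also called Irgm3, read 8.68, 9.56 and 9.49, and 8.13, 9.34, 8.88 and 8.85, a difference of -0.45 ± 0.30 (SE). In each gene WT-27 was the lowest wild-type liver, WT-103 and WT-104 were the highest of all, KO-90 was the highest knockout liver and KO-03 the lowest of all. The spread within wild type alone reached 1.20 for Irgm2, more than its difference between genotypes. Without WT-27 the differences of Irgm1, Irgm2 and Igtp were -0.69, -0.93 and -0.73, over 1.5 times larger, and without WT-103 or WT-104 they were -0.28 to -0.39. Without KO-03 the difference of Igtp was -0.22.

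Among the 3 GBP genes, Gbp7 differed most and Gbp2 least. The brighter probe set of Gbp7 read 7.48, 7.90 and 7.75 in wild type and 6.90, 6.93, 6.99 and 5.39 in knockout, a difference of -1.16 ± 0.36 (SE) with no overlap. KO-94 lay far below the other knockout livers, and without it the difference was -0.77. The second probe set of Gbp7 read 6.22, 6.97 and 6.59, and 5.92, 6.39, 6.32 and 5.60, a difference of -0.53 ± 0.23 (SE), and there the genotypes overlapped. Gbp3 read 6.19, 6.56 and 6.98, and 6.30, 6.45, 5.89 and 5.98, which overlap, with a difference of -0.42 ± 0.21 (SE). Gbp2 was the other member with a mean above wild type. Its brighter probe set, of a kind marked on this array as open to reading similar transcripts, read 5.25, 5.35 and 6.12, and 5.78, 5.89, 5.50 and 5.82, a difference of 0.18 ± 0.21 (SE). Its dimmer probe set differed by 0.47 ± 0.24 (SE), and 2 of its 3 wild-type values lay at or under the floor. WT-104 was the highest of all livers for Gbp3 and for the brighter probe set of Gbp2, and without WT-104 the differences were -0.22 for Gbp3 and 0.45 for Gbp2. The Gbp2 difference was 0.07 without WT-103 and 0.01 without WT-27.

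Gbp7, Gbp3, Gbp2b and Gbp2 are neighbours in gene order, and 1 called gene lies close to them. Kyat3, a kynurenine aminotransferase gene 4 places after Gbp2, was lower by 2.68 ± 0.22 (SE; limma adjusted p = 0.000902), and it was singled out after its value was seen. Gtf2b, the gene encoding transcription factor IIB and 1 measured place further on, differed by 0.26 ± 0.12 (SE). Among the 9 measured genes within 10 places of Igtp, Irgm2 included, 0 were called by limma and 1 had an unadjusted p under 0.05.

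**Figure D3:**
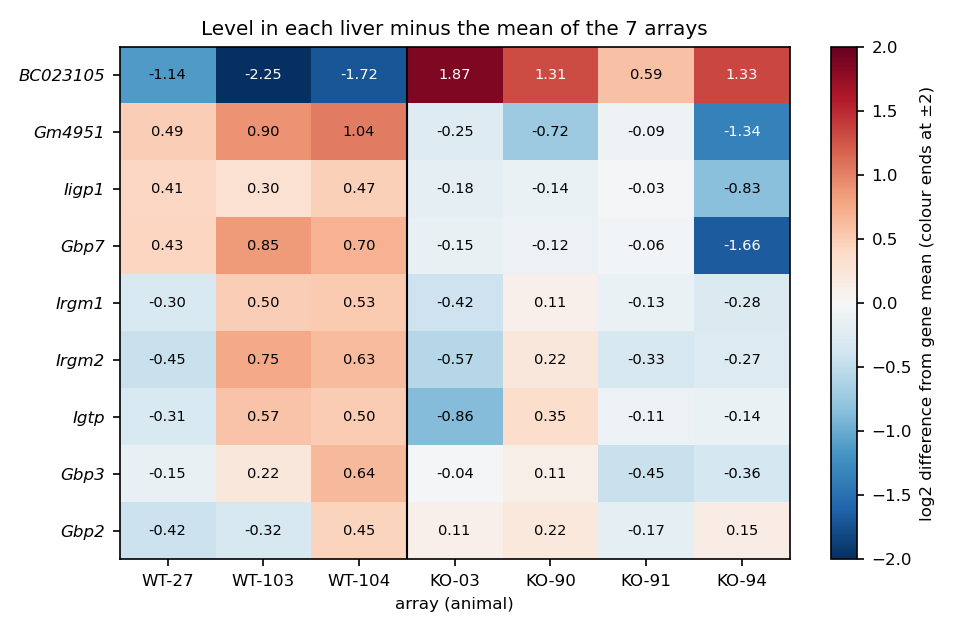
Level of each member in each liver minus the mean of its 7 arrays, on the log2 scale, as numbers and as colour, with the line separating the 3 wild-type from the 4 knockout livers. BC023105 runs opposite to Gm4951, Iigp1 and Gbp7 between genotypes, KO-94 is the lowest for those 3, and Irgm1, Irgm2 and Igtp are all lowest in KO-03 and next lowest in WT-27.

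The members fell into patterns that differed from liver to liver. Irgm1, Irgm2 and Igtp followed one another over the 7 livers, with Pearson r from 0.92 to 0.98 and Spearman rho from 0.93 to 0.96 between pairs. After the mean of each genotype was taken away, r was still 0.91 to 0.98. With the 2 livers farthest from the median left out (WT-103 and WT-104), it was 0.91 to 0.94 over 5 livers. Gm4951, Iigp1 and Gbp7 also followed one another, with r from 0.93 to 0.96 and rho from 0.89 to 0.93. Within genotypes these 3 pairs had r from 0.83 to 0.93, and without KO-94 the same pairs had 0.50, 0.59 and 0.67. BC023105 ran against Gm4951 over all livers (r = -0.88, rho = -0.86). That relation rested on the genotypes, since within them r was -0.33. These correlations describe 7 arrays normalised together, in genes chosen for their values, and carry no test.

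By the call rule used for all genes, 1 member was called higher, BC023105, and 1 lower, Gm4951, where 2.58% of genes were called higher and 0.951% lower. In 4 members the genotypes did not overlap, 1 above and 3 below wild type, where 15.8% of genes did not overlap, 9.15% above and 6.62% below. Since the members were proposed from this contrast, nothing is read from either count. The call of Gm4951 was lost when any single wild-type liver or KO-90 was left out. Gbp7 was called without KO-94. The median difference of the 9 members was -0.45, against 0.01 for all genes tested, and for the same reason nothing is read from it. All 9 members lay above the floor on every array by the probe set used for the gene, as did 11 of the 12 probe sets, and no low-value filter was applied.

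Other GTPase genes of the IRG, GBP and related families were listed by family, and whether interferon induces each of them was not checked. Of 24 listed, 15 were not used here, and of the 9 measured 0 were called higher and 1 lower, with a median of -0.25 (limma unadjusted p under 0.05 in 1 higher and 2 lower). Gbp6, of the GBP family, read 7.92, 8.0 and 8.33 in wild type and 6.93, 7.02, 6.74 and 6.45 in knockout. It fell by 1.30 ± 0.16 (SE; limma adjusted p = 0.00491) and kept its call in all 16 refits under other settings or without 1 liver, in which its adjusted p reached 0.0259. Its second probe set differed by -1.05 (limma adjusted p = 0.0801 among all probe sets). The antiviral dynamin-like GTPase gene Mx2 differed by -0.54 ± 0.16 (SE), Gm12185 by -0.25 ± 0.12 and Ifi47 by -0.29 ± 0.34, none of them past the test. Ifi47, an IRG gene also known as Irgd, read 9.07, 10.20 and 10.33 in wild type, the same low place for WT-27 as in Irgm1, Irgm2 and Igtp. Its r with Igtp was 0.89 over the 7 livers and 0.79 over 5 without the farthest 2 (KO-03 and WT-103). Gbp8 had its 3 wild-type livers at or under the floor and was higher by at least 0.24, and Gbp2b differed by -0.94 ± 0.55 (SE), or by -0.46 with its 2 knockout values under the floor set to it. Neither passed. Irgc1 and Mx1 never exceeded the floor.

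**Figure D4:**
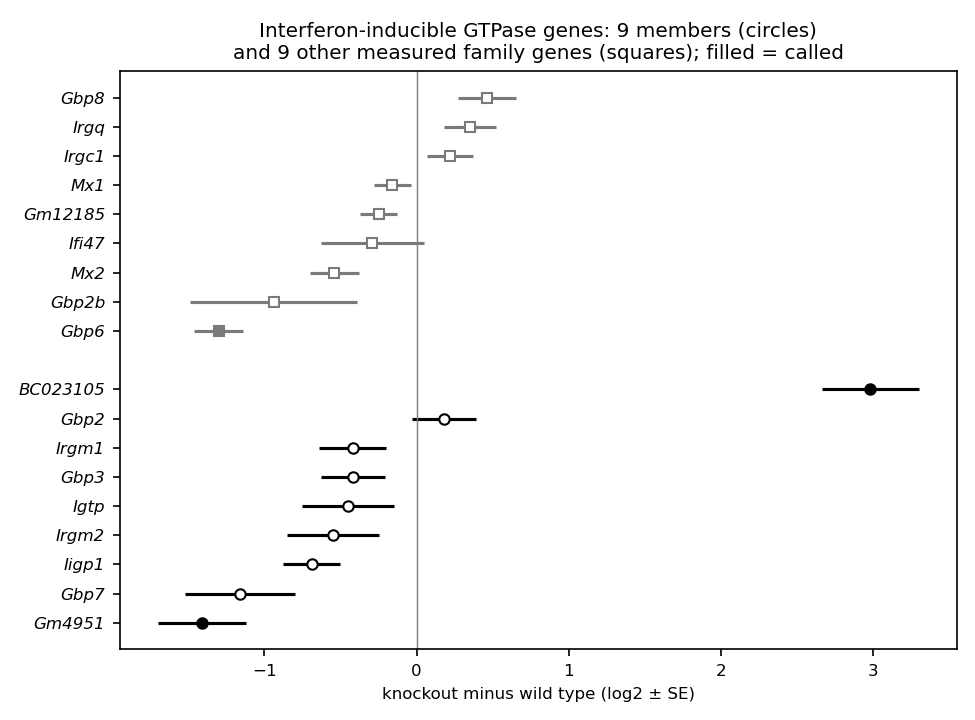
Knockout minus wild type (log2 ± SE, horizontal axis) of the 9 members (circles) and of the 9 other measured family genes (squares), filled where called by limma over all genes. BC023105 at 2.98 stands apart from the others, which lie between -1.41 and 0.46, and Gbp6 at -1.30 is the only called gene among the squares.

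Signalling steps before these genes were taken next. Of 18 measured interferon ligands, receptors and related cytokines, 0 were called in either direction, with a median of 0.04 (limma unadjusted p under 0.05 in 1 higher and 2 lower). Interferon gamma itself, Ifng, and 8 others never exceeded the floor. The receptor subunit genes Ifngr1, Ifnar2 and Il10rb differed by 0.25 ± 0.12, -0.45 ± 0.14 and 0.69 ± 0.19 (SE), and the cytokine Il18 by -0.51 ± 0.16. Of 17 JAK, STAT and IRF genes 2 rose and 0 fell, with a median of 0.06. Irf8, a factor of myeloid cells, rose by 1.06 ± 0.21 (SE; limma adjusted p = 0.0277) and the kinase Jak1 by 0.51 ± 0.11 (SE; limma adjusted p = 0.0392). Both lost the call without any single liver except KO-03, and Jak1 also with the mean of all probe sets, at limma adjusted p up to 0.116 and 0.162. Their other probe sets differed in the same direction and did not pass. Irf5 and Irf7 differed by -0.74 ± 0.24 and -0.48 ± 0.19 (SE) and did not pass.

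Among 14 inhibitors of the pathway 1 rose and 0 fell, with a median of 0.11. Ptpn2, a phosphatase that acts on JAK and STAT proteins and one of the genes in order around Mir122, rose by 0.56 ± 0.12 (SE; limma adjusted p = 0.0455), a call lost in 10 of 16 refits, among them each that left out 1 liver. Of its 3 other probe sets, the one above the floor differed by 0.12 with overlapping genotypes, and the mean of all gave a Ptpn2 difference of 0.25. Cish differed by -1.17 ± 0.29, Ptpn1 by 0.38 ± 0.18 and Usp18 by -0.69 ± 0.43 (SE), without passing. Usp18, which limits interferon signalling and is itself induced by it, read 6.96, 8.37 and 7.34 in wild type and 5.85, 7.50, 6.83 and 7.27 in knockout. As for Igtp, KO-03 was the lowest liver and WT-103 the highest, with r = 0.90 and rho = 0.86 between the 2 genes. Without those 2 livers r was 0.74 over 5.

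Other interferon targets were called in both directions. Of 30 measured targets of interferon gamma that are not GTPases, 1 rose and 1 fell, with a median of 0.33 (limma unadjusted p under 0.05 in 13 higher and 2 lower). The adhesion molecule Vcam1 rose by 0.96 ± 0.16 (SE; limma adjusted p = 0.0154). The chemokine Cxcl11 fell by at least 0.75, since all 4 knockout livers lay at or under the floor (limma adjusted p = 0.0199). Erap1 and Upp1 differed by -0.44 ± 0.11 and 0.58 ± 0.14 (SE) and did not pass, and 2 wild-type livers were at or under the floor for Upp1. Of 36 measured targets of type I interferons 3 rose and 2 fell, with a median of -0.17. Lgals3bp rose by 1.07 ± 0.14, the exonuclease gene Isg20 by 1.28 ± 0.22 and Ly6e by 0.98 ± 0.18, while the virus-tethering protein gene Bst2 fell by 1.17 ± 0.13 and the antiviral enzyme gene Rsad2 by 0.74 ± 0.14 (SE, limma adjusted p from 0.00211 to 0.024). Bst2 and Lgals3bp kept their calls in all 16 refits. Isg20 lost its call without WT-27 or WT-103, Rsad2 without any wild-type liver or KO-91, and Ly6e without any wild-type liver, KO-90 or KO-91. Vcam1 lost it without WT-103 or WT-104, and Cxcl11 without WT-27, WT-103 or KO-91. The Ly6e probe set used is also of a kind open to reading similar transcripts, and without such probe sets the Ly6e difference was 0.76 (limma adjusted p = 0.073). With the mean of all probe sets the Cxcl11 difference was -0.54 (limma adjusted p = 0.073). A further list joined genes of autophagy conjugation, whose lipid-conjugation products help to direct these GTPases to membranes, with other targeting partners, Aim2 among them. Of 22 measured, 0 were called, with a median of 0.15 (limma unadjusted p under 0.05 in 4 higher and 0 lower). The largest shift there by p was that of the cargo receptor Sqstm1, 0.61 ± 0.16 (SE). Nbr1, Gabarapl2 and Aim2 differed by 0.37, 0.35 and 0.28, and Aim2 lay under the floor on all arrays.

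The hepatocyte product albumin, Alb, averaged 14.60 ± 0.04 (SD, n = 3) in wild-type livers and 14.63 ± 0.04 (SD, n = 4) in knockout livers. None of 11 hepatocyte markers was called by limma, and 1 had an unadjusted p under 0.05. Markers of other cells that can carry these GTPases were set beside them by the log2 of their summed level. For 17 macrophage and Kupffer cell markers this was 12.79 to 13.36 in wild type and 13.14 to 13.69 in knockout, with a median difference of 0.48. An unadjusted p under 0.05 was found in 7 higher and 0 lower, and 1 was called, Cx3cr1, which rose by at least 0.53 (limma adjusted p = 0.047, lost in 8 of 14 refits, among them each without 1 liver except KO-03). For 11 endothelial markers it was 11.08 to 11.29 and 11.07 to 11.37, with 0 called (limma unadjusted p under 0.05 in 3). For 15 T and NK cell markers it was 8.36 to 8.68 and 8.47 to 8.59, with 0 called, 2 at an unadjusted p under 0.05 and 11 that never exceeded the floor. For 7 B cell markers it was 7.96 to 8.59 and 8.19 to 8.95, with 0 called, also at an unadjusted p under 0.05. The summed levels of neutrophil, stellate cell and cholangiocyte markers were higher in every knockout liver than in any wild-type liver. Of 8 neutrophil markers 2 rose, S100a8 and S100a9, and 3 lay under the floor, Mpo, Cxcr2 and Camp. The sum of the 8 was 7.77 to 8.15 in wild type and 9.24 to 11.20 in knockout. S100a8 and S100a9 made up most of the knockout sums, so the sum does not describe the list as a group. Its median difference was 0.22, and no neutrophil marker besides those 2 had a limma unadjusted p under 0.05. Csf3r overlapped between genotypes, with a shift of 0.38 ± 0.22 (SE, limma adjusted p = 0.447). Of 11 stellate and fibroblast markers 6 rose (11.90 to 12.06, and 12.56 to 13.16), and of 7 cholangiocyte markers 4 rose (7.30 to 7.50, and 8.50 to 9.70). The cholangiocyte markers Krt7 and Cftr never exceeded the floor. For Tspan8 all 3 wild-type livers lay at or under it, for Epcam and Krt19 2 each, and for Cd24a 1. Among these called markers, losses were most frequent for Krt19, in 6 of 15 refits, and the stellate marker Hand2, in 7 of 16. KO-94, the lowest liver for Gm4951, Iigp1 and Gbp7, had the highest S100a8 and S100a9, the latter at 10.13. KO-03 had the next highest, 8.96 and 9.17. Its Gm4951 value was 9.27, where KO-90 read 8.80 and KO-91 read 9.43. For Iigp1 and Gbp7, KO-03 read 11.58 and 6.90, close to KO-90 and KO-91. S100a8 and S100a9 lost their calls without WT-27 or WT-103. The part of these cells in the members' differences was not tested.

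The genes with a pattern most like that of BC023105 were found by Pearson r over the 7 livers, as a description. They were Immt (r = 0.993), a mitochondrial cristae protein gene, Trim8 (0.987), the tight junction gene Ocln (0.985), the mitochondrial ATPase inhibitor gene Atpif1 (0.984) and Irak2 (0.982). Within genotypes their r with BC023105 was 0.795 to 0.924, which follows in part from picking them by r over the same livers. Their own differences were smaller than that of BC023105, from 0.43 for Trim8 to 1.52 for Atpif1. The most opposite were Ss18l2 (r = -0.987), the DNA repair nuclease gene Ercc5 (-0.987) and the complement gene C9 (-0.984), which differed by -0.48, -0.46 and -1.13. Among the genes named here for their pattern, Trim8, Irak2 and Ss18l2 were not called. In all, 213 genes had an r of at least 0.9 and 190 an r of at most -0.9.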

How the data were processed

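Liver RNA of 3 wild-type and 4 knockout mice was measured on 1 array per animal. The deposited table holds log2 values made by the authors with RMA (Partek), per the submitters' processing notes and the design text. This method corrects background, quantile normalises arrays together and summarises each probe set. The sources used here do not give versions, probe set definitions or the genome build. Values ran from 2.204 to 14.887 with array medians of 4.65 to 4.72. Arrays have no counting depth, and their number limits the precision.

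Of 45101 probe sets 64 were controls. The platform annotation gave 1 symbol to 34945 of the others and several to 932, and 9160 were not listed. Each of 18193 genes was read by its brightest probe set on average. A RefSeq gene table of GRCm38.p6 held the Entrez identifier of 34741 probe sets and updated 0 symbols. It also gave biotype, chromosome and gene order, and none of its coordinates is printed.

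Genotypes, from the sample titles, were compared two-sided, without covariates, by lmFit and eBayes of limma 3.58.1 (R 4.3.3). Genes with a Benjamini-Hochberg adjusted p under 0.05 over all genes were called, and a second fit took all 45037 probe sets that are not controls. The labels name separate animals but no litter or batch. With 1 array per animal, the spread behind the p-values joins differences between animals with those of RNA preparation and array. The eBayes step also draws each gene's spread toward a value shared by all genes. The fit was also run on simulated data, with 200 changed genes in 10 runs of 18193 genes. It recovered 89.0% of changes of log2 size 1 and 99.2% of size 2, with 5.5% false calls. The simulated noise was normal and independent between genes and livers, with no separate livers and no differences between arrays. These shares therefore need not hold for the real arrays.

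Members and gene lists were chosen with earlier results of these data known, so members carry no p-value and lists are described by counts and medians. The floor is the brightest bacterial control probe set of each array, 4.71 to 5.23, chosen after the data were seen. It was the same probe set on every array and lay above each array's median, while the median bacterial control was 2.86 to 3.14. A value at or under this floor therefore does not show that a gene is not expressed. Named genes are all members, the 4 listed genes with the smallest p in each list and any called one, up to 10 called genes nearest to Mir122, and the 8 genes most like or opposite to BC023105. Of these, some cell type markers are given only as summed levels, and genes outside the rule that are named beside a member's place in gene order or a member's pattern were chosen after their values were seen. Alternatives covered the prior, array weights, normalisation, filters on dim genes, the choice of probe set, thresholds and leaving out each array.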

Additional observations from a re-analysis of the deposited data

Results flagged for a closer look

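In 6 of 76 sets of 4 knockout livers that were checked, 1 liver lay farther from the rest than Dixon's 95% limit allows, where chance gives about 1 in 20. In the dimmer probe set of Iigp1, KO-94 stood at 9.02 and the other knockout livers at 10.06 to 10.10. In the brighter probe set of Gbp7, KO-94 stood at 5.39 and the others at 6.90 to 6.99. Both of these are members, and in both the separate liver was the lowest of all 7. In 3 further genes KO-03 was the separate liver. Il18 stood at 7.67 against 8.27 to 8.29, Erap1 at 7.86 against 8.01 to 8.02, and the cholangiocyte marker Tspan8 at 5.30 against 6.93 to 7.23. Aim2 stood at 3.14 in KO-91 against 2.91 to 2.92, under the floor on all arrays.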

How the results depend on the processing

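BC023105 was called higher in all 16 refits, with differences of 2.71 to 3.26, and it was the only member called higher under any alternative. Because members were chosen from this contrast, such calls describe how values move with the settings and are no support for a difference. Of members called lower, 1 in the reported fit, the number was 0 when every probe set was tested on its own and at an adjusted p under 0.01, and 0 to 2 when 1 liver was left out. Gm4951 ranged from -1.58 to -1.16 and Gbp7 from -1.30 to -0.77. The 7 members with a mean below wild type stayed below it, and Gbp2 stayed at or above 0.01, in every refit that kept them. The number of all genes called higher, 470, became 909 with array weights, 141 at an adjusted p under 0.01, 258 with a fold of at least 2, and 132 to 892 with 1 liver left out. The number of all genes called lower, 173, became 344, 31, 66, and 37 to 252. The number of listed pathway genes called higher, 7, became 15, 1, 3, and 1 to 15, and that of listed pathway genes called lower, 4, became 9, 2, 2, and 2 to 5. Among the fits without 1 liver, counts were highest without KO-03 and lowest without WT-103, for all genes in both directions and for listed pathway genes called higher. The cause was not tested. No paired analysis was possible because the animal numbers do not recur between genotypes. Values at or under the floor limit several differences, among them those of Synpo, Tnfaip8, Cxcl11, Cx3cr1, Gbp8, Gbp2b, Upp1 and the dimmer probe set of Gbp2.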
